A study of Mus musculus with 23 samples.

Results

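The Hox genes encode homeodomain transcription factors that set position along the head-to-tail axis, and their levels were described here in the colon of mice colonized with Bacteroides fragilis. Members were all genes of the deposited count table whose symbol is Hox, a cluster letter from a to d and a paralog number, which gave 39 of the 55449 genes. The HoxA cluster held 11 members, HoxB 10, HoxC 9 and HoxD 9. The paralog number, which follows a gene's place within its cluster, was used to order them. Numbers 1 to 3 are called anterior here, 4 to 8 central and 9 to 13 posterior.

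Within each cluster the genes lie in the order in which they are used along the embryo, with low paralog numbers at the head side and high ones at the tail side. Part of this code is kept in adult tissue, and in the gut the posterior genes mark the hindgut and its lower end, in both the epithelium and the underlying mesenchyme. Hox proteins bind DNA with TALE cofactors of the Pbx and Meis families, caudal-type factors such as Cdx1 and Cdx2 switch the central genes on in the embryo, and Polycomb proteins keep unused parts of the clusters silent.

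All 23 libraries were made from colon RNA of male Cdx2Apc f/w mice on the C57BL/6 background, aged 6 to 8 weeks at the start and fed a diet with 60% fat. These mice carry 1 floxed Apc allele and a Cre recombinase driven by the Cdx2 promoter, and no group lacked the floxed allele, the diet or the bacteria. The bacteria were B. fragilis 638R with an empty vector (BF BSHlow, low bile salt hydrolase) or 638R carrying the bile salt hydrolase gene of strain NCTC9343 (BF BSHhigh), given after antibiotic water. Colon after 2 weeks (4 libraries per strain), non-tumor colon after 12 weeks (4 per strain) and colon tumors after 12 weeks (4 for BF BSHlow and 3 for BF BSHhigh) were compared. The labels give the tissue as colon and name no colon segment. The study calls the 12-week libraries independent samples and their sample sizes pooled, but the labels do not tie a library to an animal. So p-values measure the spread between libraries, which may in part be technical. Tumor and non-tumor libraries may share animals, and the main tests treated them as unpaired.

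The libraries held 12401388 to 17903008 expected counts. Levels below are CPM (counts per 1000000 of the TMM-scaled library size, set over all libraries), and between genes they are compared only per kilobase of exon (CPM per kb). Apc, the floxed gene, was at 67.1 to 137 CPM in the 2-week libraries, 88.3 to 190 CPM in 12-week non-tumor colon and 8.76 to 28.7 CPM in tumors, which did not overlap either other set. Cdx1, an intestinal transcription factor, was found in every library, at 267 to 366 CPM after 2 weeks, 268 to 318 CPM in 12-week non-tumor colon and 30.1 to 113 CPM in tumors. A list of 6 small intestine markers summed to 332 to 1195 CPM in the 2-week libraries, against 8.17 to 28.6 CPM in non-tumor colon and 9.29 to 16.5 CPM in tumors. Car1, a carbonic anhydrase of the colon epithelium, was also highest after 2 weeks, at 6559 to 18270 CPM against 60.04 to 712 CPM in non-tumor colon and 33.9 to 116 CPM in tumors.

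Some libraries stood apart from the rest of their set in their Hox genes, and the counts of called members and the gene values they move most are given with and without them. In BF BSHlow non-tumor replicate 4, BF BSHhigh non-tumor replicate 1, BF BSHlow tumor replicate 3 and BF BSHhigh tumor replicate a, the posterior HoxD genes were low. In BF BSHlow 2-week replicate 3 and BF BSHhigh 2-week replicates 1 and 3, the HoxA genes and the posterior Hox genes were high. Both sets were chosen by these Hox values, so their Hox differences are a description.

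The 4 clusters lie on 4 chromosomes of the mouse genome (GRCm38). HoxA is on the minus strand of chromosome 6, where Hoxa13 spans chr6:52257694-52260880. HoxB is on the plus strand of chromosome 11, with Hoxb13 at chr11:96194316-96197447. HoxC is on chromosome 15, and HoxD is on chromosome 2, with Hoxd13 at chr2:74668310-74671599. The expected counts could not separate all members from other genes at the same place, since 14 members overlapped a gene on the opposite strand and 15 a gene on the same strand. Hoxa11 with Hoxa11os, Hoxb3 with Hoxb3os, and Hoxb5 and Hoxb6 with Hoxb5os overlap in opposite orientation. Hoxd10 and Hoxd11 overlap Gm28309, a gene on their own strand. The strand setting of the counting is not given in the sources used here, so values of these genes are uncertain to that extent.

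The 250 bases before the start of 4 members that are far apart in the results are shown from RefSeq (GRCm38.p6), 5′ to 3′ on the gene's own strand. Hoxd13 and Hoxa13 rose between 2-week and 12-week non-tumor colon, and Hoxb8 and Hoxd4 fell. Capitals mark TTTATG, a core that caudal-type factors bind, and TGATNNAT, a joint Pbx and Hox core, each on either strand (CATAAA and ATNNATCA). The windows are chr2:74667975-74668224 (plus) for Hoxd13, chr6:52260881-52261130 (minus) for Hoxa13, chr11:96281655-96281904 (plus) for Hoxb8 and chr2:74721728-74721977 (plus) for Hoxd4.
Hoxd13: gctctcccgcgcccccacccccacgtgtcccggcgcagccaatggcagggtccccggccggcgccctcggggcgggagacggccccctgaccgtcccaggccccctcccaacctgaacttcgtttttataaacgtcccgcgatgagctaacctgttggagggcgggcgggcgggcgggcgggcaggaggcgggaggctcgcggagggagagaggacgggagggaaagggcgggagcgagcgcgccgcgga
Hoxa13: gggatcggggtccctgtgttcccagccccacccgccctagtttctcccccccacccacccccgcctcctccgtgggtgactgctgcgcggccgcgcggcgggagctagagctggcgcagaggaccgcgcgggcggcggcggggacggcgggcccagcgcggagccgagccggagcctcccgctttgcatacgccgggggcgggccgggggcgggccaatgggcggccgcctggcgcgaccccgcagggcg
Hoxb8: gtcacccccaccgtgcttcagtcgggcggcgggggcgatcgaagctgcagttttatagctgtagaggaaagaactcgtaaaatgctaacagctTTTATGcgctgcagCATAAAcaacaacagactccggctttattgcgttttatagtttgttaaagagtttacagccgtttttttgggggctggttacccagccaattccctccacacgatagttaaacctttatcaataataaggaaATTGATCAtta
Hoxd4: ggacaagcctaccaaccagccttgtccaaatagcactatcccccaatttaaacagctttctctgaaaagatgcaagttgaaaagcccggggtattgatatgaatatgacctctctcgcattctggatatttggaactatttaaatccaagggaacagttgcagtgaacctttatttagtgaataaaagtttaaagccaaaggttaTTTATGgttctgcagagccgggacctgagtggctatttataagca
No capital stood in the windows of Hoxd13 and Hoxa13. The Hoxb8 window held 2 TTTATG matches and 1 TGATNNAT match, which did not overlap, and the Hoxd4 window held 1 TTTATG match. RefSeq windows of 300 bases (250 before and 50 after the start) were at hand for 22 of the 39 members, in 24 windows. TTTATG was in 5 of the 24 (20.8%, those of Hoxa7, Hoxb8, Hoxd3, Hoxd4 and 1 of Hoxd11), against 11.9% of 32851 windows of all genes. TGATNNAT was in 4 of the 24 (16.7%, those of Hoxa2, Hoxb1, Hoxb8 and 1 of Hoxd11), against 8.85% of all windows. The 4 members shown were picked by their results, and other members differed from them. Hoxd11, which rose, held TTTATG in 1 window and TGATNNAT in another. Hoxb4 and Hoxd8, which fell, held neither, and Hoxa7, which was not called, held 2 TTTATG matches. A match describes the letters only.

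HoxC was near silent in all 6 groups. None of its 9 members exceeded 7 counts in a library, and Hoxc12 and Hoxc13 had no count in any of the 23 libraries. A count of 0 allows up to 3 counts, or 0.135 to 0.280 CPM depending on the library, and this limit covers counting error only. Hoxb1 and Hoxd1 were equally low, so 11 members in all never exceeded 10 counts. The tests below could use 27 members in at least 1 comparison, 11 of HoxA, 9 of HoxB and 7 of HoxD.

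**Figure D1:**
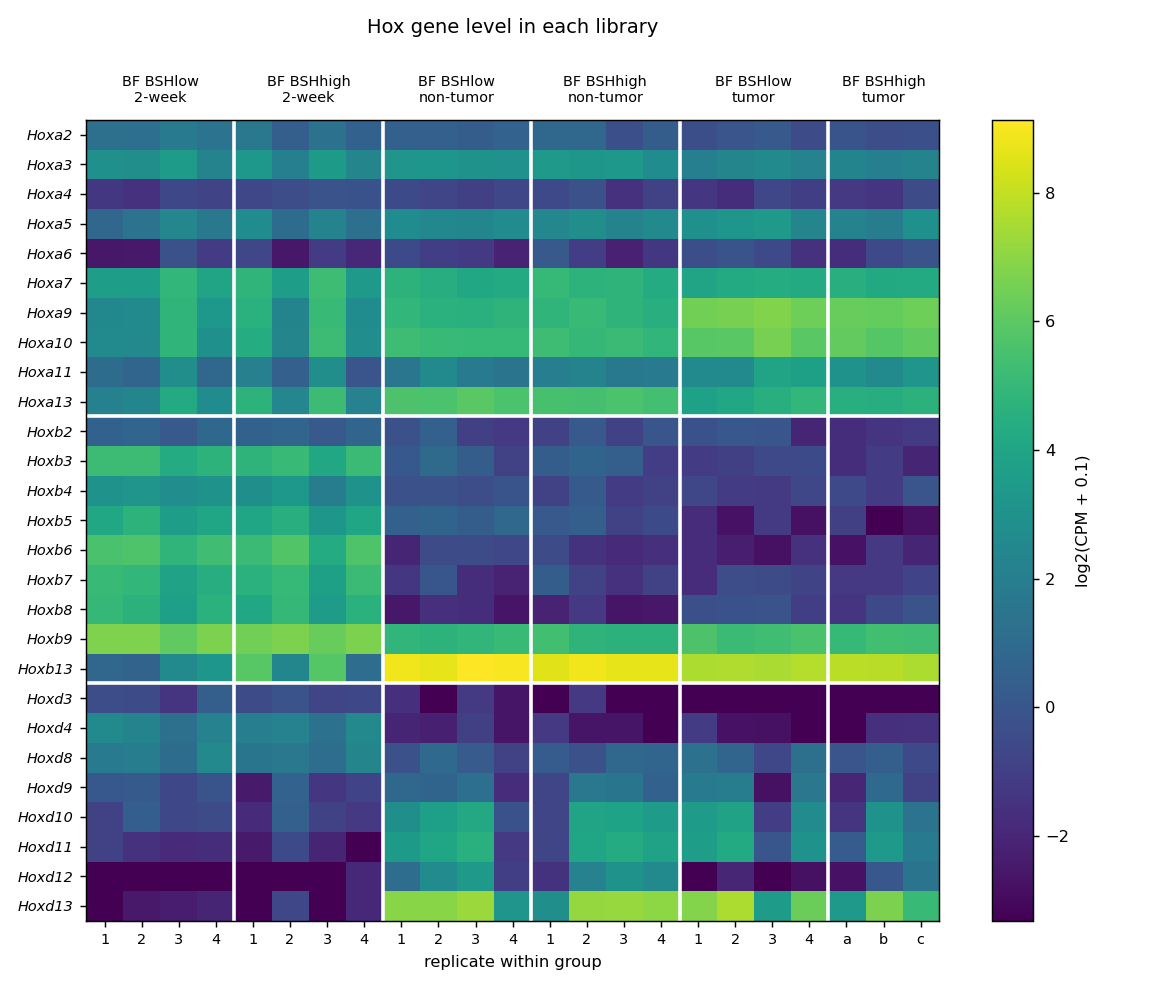
Level of Hox genes with more than 10 counts in a library (rows, ordered by cluster and paralog number) in each of the 23 libraries (columns, by group and replicate), as log2(CPM + 0.1) in color. Central HoxB genes are bright only in the 2-week libraries, and Hoxb13 and the posterior HoxD genes are bright in most 12-week libraries.

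Different genes led the code in the 2-week and the 12-week libraries. Per kilobase, the 2-week order began with Hoxb9 at 36.6 ± 5.73 CPM per kb (mean ± SD, n = 8), Hoxb6 at 20.97 ± 6.30 CPM per kb and Hoxb7 at 16.8 ± 5.67 CPM per kb. The ranges of these neighbours overlapped, since Hoxb9 spanned 26.3 to 41.4, Hoxb6 10.3 to 27.7 and Hoxb7 8.85 to 22.9 CPM per kb. In 12-week non-tumor colon, Hoxb13 came first at 205 ± 28.5 CPM per kb, followed by Hoxd13 at 42.2 ± 24.5 and Hoxa13 at 19.7 ± 2.46 CPM per kb (n = 8). Hoxb13 did not overlap the second gene, while Hoxd13 reached down to 2.91 CPM per kb in the libraries with low HoxD and so overlapped Hoxa13. In tumors, Hoxb13 was again first at 93.5 ± 6.63 CPM per kb, ahead of Hoxd13 at 31.6 ± 26.8 and Hoxa10 at 20.8 ± 4.11 CPM per kb (n = 7), and again only the first place was clear of the next.

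A single value for each library, the log2 ratio of summed posterior (9 to 13) to summed anterior and central (1 to 8) levels per kb, gave the same picture. It was -0.91 to 0.74 in the 2-week libraries, 3.45 to 4.81 in 12-week non-tumor colon and 3.27 to 4.13 in tumors. The means differed by 4.61 between 12-week non-tumor and 2-week colon and by -0.43 between tumors and non-tumor colon. With numbers 10 to 13 set against 1 to 9, which moves paralog 9 to the other side, these differences were 6.22 and -1.27.

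The 2-week and 12-week non-tumor libraries were compared across both strains (8 against 8) to see whether the Hox code was alike in the colon tissue of the 2 times. Most posterior genes were higher and all 5 central HoxB genes lower in the 12-week libraries (8 of 11 posterior members rose, and 7 of 9 central members fell). Of 24 members tested, 18 were called (adjusted p under 0.05 in edgeR's quasi-likelihood test with Benjamini-Hochberg adjustment over all genes, and a log2 fold change beyond 1 in size), against 26.5% of all 15533 genes tested. The 8 that rose compare with 18.5% of all genes, and the 10 that fell with 8.02%. Without the 3 apart 2-week libraries 10 rose and 11 fell of 26 tested, against 3097 and 1379 of 16136 genes. Without the non-tumor libraries with low HoxD 8 rose and 9 fell of 24, against 2908 and 1406 of 15655 genes. Both exclusions were chosen by Hox values. In 13 members the 2 sets did not overlap (4 higher, 9 lower), against 25.4% of all genes (14.9% higher, 10.4% lower). Time on the diet, age, collection, tissue makeup and any difference in the piece of colon taken went together between these sets and cannot be told apart. In bulk RNA, fewer cells of a type and less RNA per cell cannot be told apart either. Words such as rose, fell and over time name only the side of the 12-week set against the 2-week set.

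Hoxb13, the last gene of its cluster and a marker of the lower hindgut, showed the rise at the highest level. Its 8 non-tumor values were 379, 404, 412, 414, 466, 471, 517 and 562 CPM, and its 8 values after 2 weeks were 1.48, 1.65, 2.06, 5.19, 5.87, 9.25, 57.2 and 59.4 CPM. The sets did not overlap, and the 2 highest 2-week values both came from BF BSHhigh libraries that stood apart. Hoxb13 was 37.4-fold higher (log2 5.22 ± 0.59 SE, adjusted p = 2.01e-06, edgeR). Without the 3 apart libraries, which were chosen by their Hox values, the log2 fold change was 6.82.

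Hoxd13, which like Hoxa13 patterns the end of the hindgut and the digits, was near 0 after 2 weeks. It had 0 to 0.519 CPM in those 8 libraries, 13 counts in all. In 12-week non-tumor colon, 6 libraries held 121 to 153 CPM and the 2 with low HoxD held 7.23 and 8.96 CPM, still above every 2-week value. The log2 fold change was 9.66 ± 0.94 (adjusted p = 4.31e-07, edgeR). The ratio of summed counts, each divided by the TMM-scaled size of its libraries, was 811 (95% exact Clopper-Pearson interval 474 to 1524, counting error only). Hoxa13 rose less, by 3.78-fold (log2 1.92 ± 0.40, adjusted p = 0.000585, edgeR). It was at 42.9 to 62.4 CPM in the non-tumor libraries and 4.28 to 6.50 CPM in 5 of the 2-week libraries, with 19.8, 26.4 and 36.6 CPM in the 3 that stood apart. Without those 3, the log2 fold change of Hoxa13 was 3.21. Hoxc13, the fourth gene of this paralog group, had no count.

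The rest of the posterior HoxD genes moved with Hoxd13. Hoxd12 had 2 counts over all 8 of the 2-week libraries and 589 counts over the 8 non-tumor libraries. Scaled by library size as for Hoxd13, the ratio was 243 with a 95% exact interval of 67.0 to 2013 (Clopper-Pearson, counting error only). Set against 3 counts in a library, its mean over the 8 non-tumor libraries was at least 17.1-fold higher. The 2 non-tumor libraries with low HoxD held only 6 and 4 counts of it. Its fitted log2 fold change of 7.84 ± 1.17 (adjusted p = 7.64e-05, edgeR) depends on the prior count. Hoxd11 rose by a log2 fold change of 5.66 ± 0.85 (adjusted p = 3.23e-05, edgeR), from a mean of 0.241 ± 0.194 CPM to 12.9 ± 8.66 CPM (SD, n = 8 each). Limma-voom did not call Hoxd11 (adjusted p = 0.0961) or Hoxd13 (adjusted p = 0.0665), and leaving out the 2 libraries with low HoxD raised the edgeR values to 6.04 and 10.02.

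The central HoxB genes went the other way, and none of their non-tumor libraries reached a 2-week library. Hoxb6 was at 54.5, 52.4, 51.5, 47.3, 39.1, 35.8, 28.8 and 20.2 CPM after 2 weeks and at 0.148 to 0.633 CPM in non-tumor colon. The highest 12-week value was thus below the lowest 2-week value by a wide margin, and the log2 fold change was -6.68 ± 0.29 (adjusted p = 3.65e-10, edgeR). Hoxb8 fell by 7.19 ± 0.34 on the log2 scale (adjusted p = 5.37e-10, edgeR), from 22.5 ± 7.62 CPM to 0.144 ± 0.0946 CPM (SD, n = 8 each). Its neighbour Hoxb7 fell by 5.73 ± 0.36, Hoxb5 by 3.98 ± 0.23 and Hoxb4 by 3.52 ± 0.24 on the same scale, with adjusted p of at most 1.45e-08. Hoxb3, an anterior gene, fell by 4.71 ± 0.28, and Hoxd4, a central HoxD gene, by 4.83 ± 0.42 (adjusted p = 1.51e-07, edgeR).

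Hoxb9 lies between these and Hoxb13, and it was the exception among posterior genes. It was at 67.6 to 107 CPM after 2 weeks and 25.4 to 41.5 CPM in non-tumor colon, with no overlap, and fell by 1.66 ± 0.12 on the log2 scale (adjusted p = 2.2e-08, edgeR). Of the 11 posterior members tested, 8 rose and 1 fell, with a median log2 fold change of 1.92. Of the 9 central members, 7 fell and none rose (median -3.98). Of the 4 anterior members, 2 fell (median -0.91), and the median of all genes tested was 0.01.

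The remaining 5 called members were chosen for mention after their values were seen. Hoxd10 rose by 3.95 ± 0.68, Hoxa10 by 1.21 ± 0.39 and Hoxd9 by 1.21 ± 0.50 on the log2 scale, the last with an adjusted p of 0.0456 in edgeR. Hoxd8 fell by 1.58 ± 0.30 and Hoxb2 by 1.01 ± 0.30. The HoxA genes a2, a3, a5, a7, a9 and a11 were not called, with log2 fold changes between -0.82 and 0.87. This rested on the 3 apart libraries. Without them the log2 fold change was 1.31 for Hoxa5, 2.08 for Hoxa9, 1.40 for Hoxa11 and 2.42 for Hoxa10. Those 3 were chosen by their high HoxA values, so leaving them out had to raise these numbers, and no p-value is given. With all libraries, HoxA had 2 of 8 tested members called, both higher, HoxB 1 higher and 8 lower of 9, and HoxD 5 higher and 2 lower of 7.

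**Figure D2:**
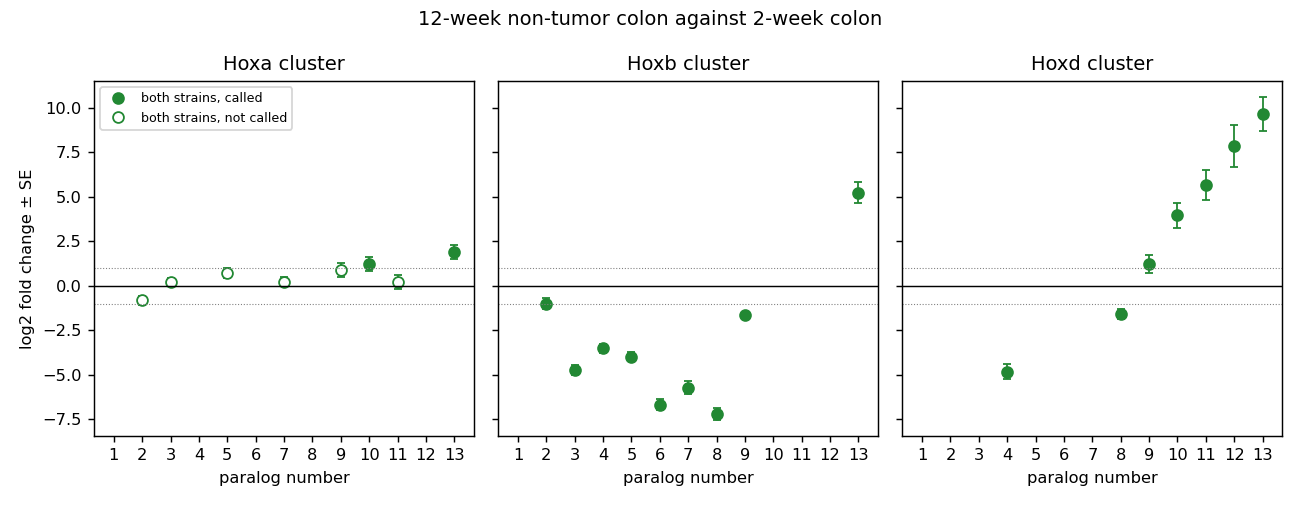
log2 fold change ± SE of tested Hox genes between 12-week non-tumor and 2-week colon (8 against 8 libraries), by paralog number, with 1 panel per cluster and filled points for called genes; dotted lines mark the fold limit. In HoxB and HoxD the low and middle numbers lie below 0 and numbers 10 to 13 above it, up to 9.66 for Hoxd13.

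Several cell type markers differed between the same 2 sets, and their part in the Hox differences was not tested. Summed smooth muscle markers (8 genes) were 15.2 to 227 CPM after 2 weeks and 1628 to 9002 CPM in non-tumor colon, a 45.6-fold difference of geometric means. Fibroblast markers (8 genes) were 61.2 to 247 and 342 to 3328 CPM, and neuron and glia markers (8 genes) 6.68 to 10.8 and 22.4 to 45.4 CPM. Epithelial markers (8 genes) ran the other way, with 14160 to 19760 CPM after 2 weeks and 10240 to 13800 CPM in non-tumor colon. None of these 4 lists overlapped between the sets (exact two-sided permutation test, p = 0.000155 each, the smallest possible, adjusted p = 0.000611 over 55 list tests). The same held for the small intestine list given above, which was higher after 2 weeks, as were the colon epithelial genes Car1 and Cdx2. Insl5, a hormone of enteroendocrine cells of the lower colon, was at 2.62 to 29.2 CPM after 2 weeks and 30.3 to 96.2 CPM in non-tumor colon, and Prac1, the other gene of that list, was not in the table.

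Lists that differed with overlap were endothelium (6 genes), at 8.08 to 59.2 against 58.9 to 130 CPM, immune cells (6 genes), at 29.9 to 81.8 against 39.0 to 219 CPM, and anal squamous epithelium (6 genes), at 0 to 2.22 against 1.38 to 3.29 CPM (exact two-sided permutation test, adjusted p of 0.00114, 0.00804 and 0.0032). Skeletal muscle markers stayed low, at 4.85 to 10.8 against 6.75 to 32.6 CPM, with Myh4 at 0 in all 23 libraries (adjusted p = 0.118 by the same exact test).

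Within the 2-week set, the 3 libraries that stood apart had a different Hox profile from the other 5 in both directions. They were chosen by their Hox values, so this separation is a description, and no share over all genes is at hand. Hoxa9 was at 24.5, 28.1 and 34.6 CPM in the 3 and at 4.75 to 9.82 CPM in the 5. Hoxa3, Hoxa5, Hoxa6, Hoxa7, Hoxa10, Hoxa11 and Hoxa13 were likewise higher in each of the 3 than in any of the 5, as were Hottip and Hoxa11os, noncoding genes at the posterior end of HoxA. Hoxb2, Hoxb4, Hoxb5, Hoxb6, Hoxb8, Hoxb9, Hoxd4 and Hoxd8 were lower in each of the 3, with Hoxb6 at 20.2 to 35.8 against 39.1 to 54.5 CPM. Insl5, which is no Hox gene, was at 8.12 to 29.2 CPM in the 3 and 2.62 to 5.09 CPM in the 5. These libraries came from both strains, 1 of BF BSHlow and 2 of BF BSHhigh.

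Tumors were compared with non-tumor colon of the same week (7 against 8 libraries) to ask whether the Hox code of the tissue was kept. Tumors had more Hoxa9 and Hoxa10 and less Hoxb13 and Hoxa13 than non-tumor colon, and the share of members called was close to that of all genes. Of 25 members tested, 9 were called, against 34.9% of all 16455 genes tested. The 4 that rose compare with 16.4% of all genes and the 5 that fell with 18.4%. Without the 4 libraries with low HoxD, 3 rose and 6 fell, against 2689 and 3143 of 16660 genes. In 8 members the sets did not overlap (4 higher, 4 lower), against 42.9% of all genes (22.2% higher, 20.7% lower). By adjusted p alone, 14 members passed, against 72.2% of all genes.

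Hoxa9, a posterior gene used in blood progenitors as well as in the hindgut, had the smallest p. Its tumor values were 89.4, 97.0, 109 and 82.8 CPM with BF BSHlow and 74.8, 72.5 and 83.7 CPM with BF BSHhigh. In non-tumor colon they were 29.9, 24.6, 24.1 and 27.8 CPM with BF BSHlow and 28.1, 33.3, 27.5 and 23.1 CPM with BF BSHhigh. Every tumor was above every non-tumor library, by 3.10-fold in the fit (log2 1.63 ± 0.09, adjusted p = 1.79e-09, edgeR). Hoxa10, next to it, was at 57.5 to 96.8 CPM in tumors and 29.2 to 38.6 CPM in non-tumor colon, also without overlap, and its log2 fold change of 0.98 ± 0.11 (adjusted p = 1.28e-06, edgeR) lay just within the fold limit.

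Hoxa11, further along the cluster, rose as well. Hoxa11 was at 5.96 to 15.2 CPM in tumors and 2.66 to 5.93 CPM in non-tumor colon (log2 1.22 ± 0.24, adjusted p = 0.000441, edgeR). Without the 4 libraries with low HoxD its log2 fold change was 0.998 (adjusted p = 0.011), and it was no longer called. Hoxb8 was low in both tissues, at 0.261 to 0.815 against 0.0610 to 0.313 CPM, and was called higher (log2 2.01 ± 0.41, adjusted p = 0.000457, edgeR).

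Of the paralog 13 genes, Hoxb13 and Hoxa13 fell in tumors to about the same extent. Hoxb13 was at 196, 202, 186 and 217 CPM in BF BSHlow tumors and 226, 219 and 197 CPM in BF BSHhigh tumors, all below the lowest non-tumor value of 379 CPM. The log2 fold change was -1.14 ± 0.08 (adjusted p = 2.08e-08, edgeR). Hoxa13 was at 13.99, 17.0, 22.04 and 30.4 CPM in BF BSHlow tumors and 22.8, 21.7 and 25.4 CPM in BF BSHhigh tumors, below the lowest non-tumor value of 42.9 CPM (log2 -1.15 ± 0.14, adjusted p = 2.96e-06, edgeR). Every tumor value of Hoxb13 was above the highest 2-week value of 59.4 CPM, while Hoxa13 in tumors overlapped the 3 apart 2-week libraries.

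Hoxd13 varied more within each tissue than between them. Tumors held 112, 196, 11.3 and 81.4 CPM with BF BSHlow and 10.6, 103 and 34.2 CPM with BF BSHhigh, against the non-tumor values of 7.23 to 153 CPM. The difference was not called (log2 -0.58 ± 0.71, adjusted p = 0.476, edgeR). It was -0.56 without the 4 libraries with low HoxD, which were chosen by these values. Hoxd12, which adjoins it, was called lower (log2 -4.19 ± 0.95, adjusted p = 0.00113, edgeR), at 0 to 2.68 CPM in tumors against 0.252 to 10.6 CPM, with overlap. The tumor values were 0, 0.155, 0 and 0.0490 CPM with BF BSHlow and 0.0521, 0.942 and 2.68 CPM with BF BSHhigh.

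Hoxb5 and Hoxb3 were low in both tissues and lower in tumors. Hoxb5 was at 0 to 0.417 CPM in tumors and 0.427 to 1.69 CPM in non-tumor colon (log2 -2.77 ± 0.55, adjusted p = 0.000417, edgeR). Without the 4 libraries with low HoxD its log2 fold change was -4.18. Hoxb3 was at 0.143 to 0.587 against 0.374 to 1.90 CPM (log2 -1.70 ± 0.37, adjusted p = 0.000819, edgeR). The median log2 fold change of the 25 members was -0.37, with 0.16 for HoxA, -0.53 for HoxB and -0.72 for HoxD, beside 0.04 for all genes tested.

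**Figure D3:**
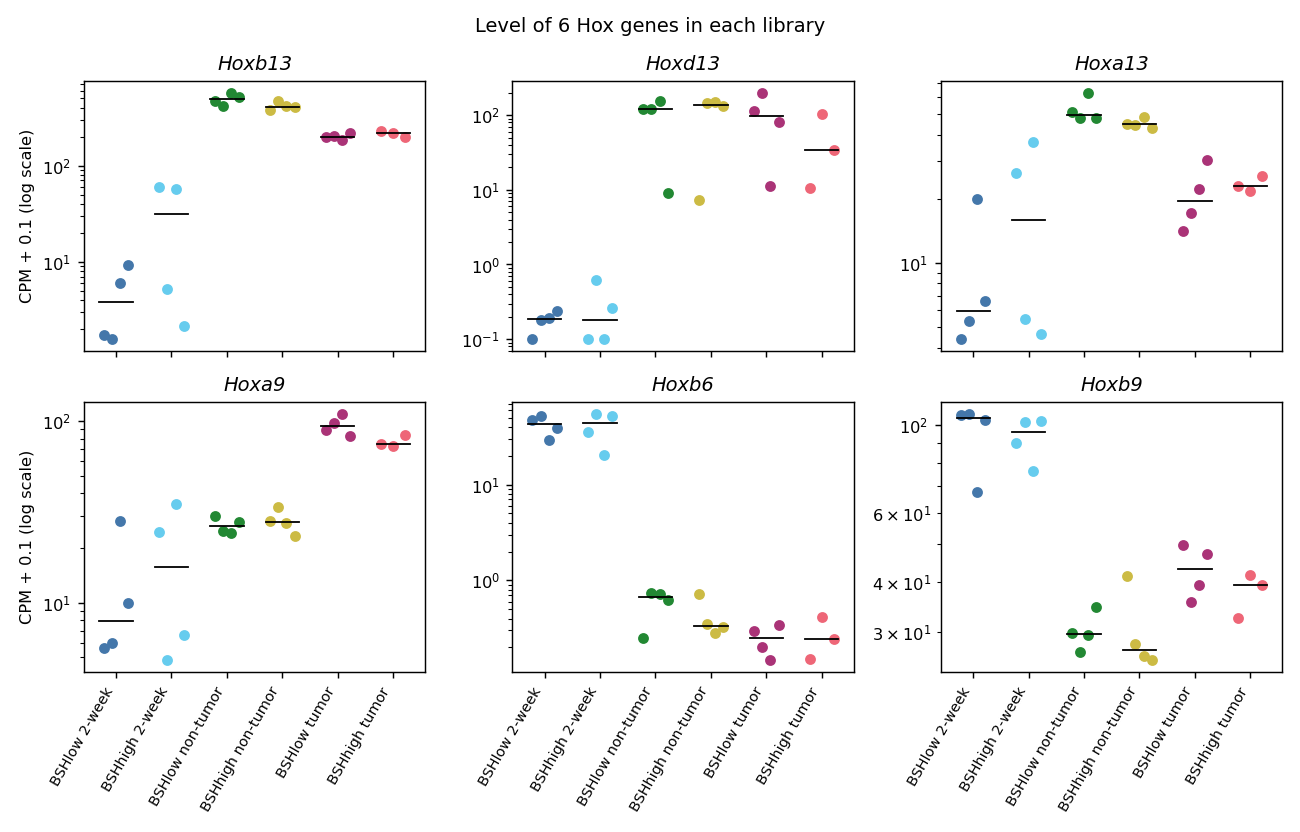
Level (CPM + 0.1, log scale) of 6 Hox genes in each library, with 1 point per library, groups on the horizontal axis and a bar at the group median. Hoxb13 and Hoxa13 are highest in non-tumor colon, Hoxa9 in tumors and Hoxb6 and Hoxb9 in the 2-week libraries, while Hoxd13 has 2 low points in each 12-week tissue.

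Tissue markers differed between tumors and non-tumor colon too, and their part in the Hox differences was not tested. Smooth muscle markers summed to 151 to 386 CPM in tumors against 1628 to 9002 CPM, epithelial markers to 4821 to 9061 against 10240 to 13800 CPM, and endothelial markers to 197 to 236 against 58.9 to 130 CPM. Anal squamous markers were at 30.0 to 146 CPM in tumors against 1.38 to 3.29 CPM, and skeletal muscle markers at 1.08 to 4.01 against 6.75 to 32.6 CPM. These 5 lists and Insl5 (0 to 4.33 against 30.3 to 96.2 CPM) did not overlap between the tissues (exact two-sided permutation test, p = 0.000155 each, adjusted p = 0.000611). Fibroblast markers (1595 to 3594 against 342 to 3328 CPM) overlapped but were 2.38-fold higher in tumors by geometric means (adjusted p = 0.0195, same exact test). Neuron and glia markers (5.24 to 61.6 against 22.4 to 45.4 CPM) overlapped (adjusted p = 0.0621). Immune markers (59.8 to 193 against 39.0 to 219 CPM) and the small intestine list did too (adjusted p = 0.911 each, same test).

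Tumors were also compared with non-tumor colon within each strain, and Hoxa9, Hoxb8, Hoxb3 and Hoxb5 were among the members called in both. Limma-voom did not call Hoxb3 with BF BSHlow (adjusted p = 0.068), and leaving out single libraries ended the call of Hoxb3 with BF BSHlow and of Hoxb5 and Hoxb8 with BF BSHhigh. The 3 BF BSHhigh tumors carry names of BF BSHlow tumors in the header of the deposited table, so each comparison that separates the strains in tumors rests on a grouping that goes against those names. In BF BSHlow mice 10 of 25 members were called, against 36.2% of all genes (5 higher against 16.7%, 5 lower against 19.5%). They included Hoxa9, Hoxa10, Hoxa11 and Hoxb8, which rose, and Hoxa13, Hoxb3, Hoxb5, Hoxb13 and Hoxd12, which fell. In BF BSHhigh mice 6 were called, against 29.4% of all genes (3 higher against 14.6%, 3 lower against 14.8%), including Hoxa9 and Hoxb8, which rose, and Hoxa3, Hoxb3 and Hoxb5, which fell. Hoxa9 had log2 fold changes of 1.81 ± 0.12 with BF BSHlow and 1.45 ± 0.12 with BF BSHhigh. Hoxb13 had -1.30 ± 0.11 and -0.97 ± 0.12, and Hoxa13 -1.34 ± 0.18 and -0.96 ± 0.20, so that in BF BSHhigh mice both passed the adjusted p but not the fold limit. Hoxd13 had -0.02 ± 0.95 and -1.14 ± 1.06, neither called.

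The difference of the tumor effect between the strains was tested itself. No member was called by edgeR, DESeq2 or limma-voom, against 0.978% of all genes in edgeR. Limma-voom called 0 of 16455 genes there, so its lack of a Hox call says nothing about the members. In edgeR, 1 of 25 members had an unadjusted p under 0.05, against 9.6% of all genes. This was Hoxd12, where the effect differed by 4.48 ± 1.84 on the log2 scale (adjusted p = 0.42, edgeR). In BF BSHlow mice it had 4 counts over the 4 tumors and 299 over the 4 non-tumor libraries. Scaled by TMM library size, the ratio was 99.5 (95% exact Clopper-Pearson interval 38.4 to 367, counting error only). In BF BSHhigh mice its log2 fold change was -1.95 ± 1.14 (adjusted p = 0.16). The difference for Hoxa9 was -0.36 ± 0.17, for Hoxb13 0.33 ± 0.16, for Hoxa13 0.38 ± 0.27 and for Hoxd13 -1.12 ± 1.42.

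**Figure D4:**
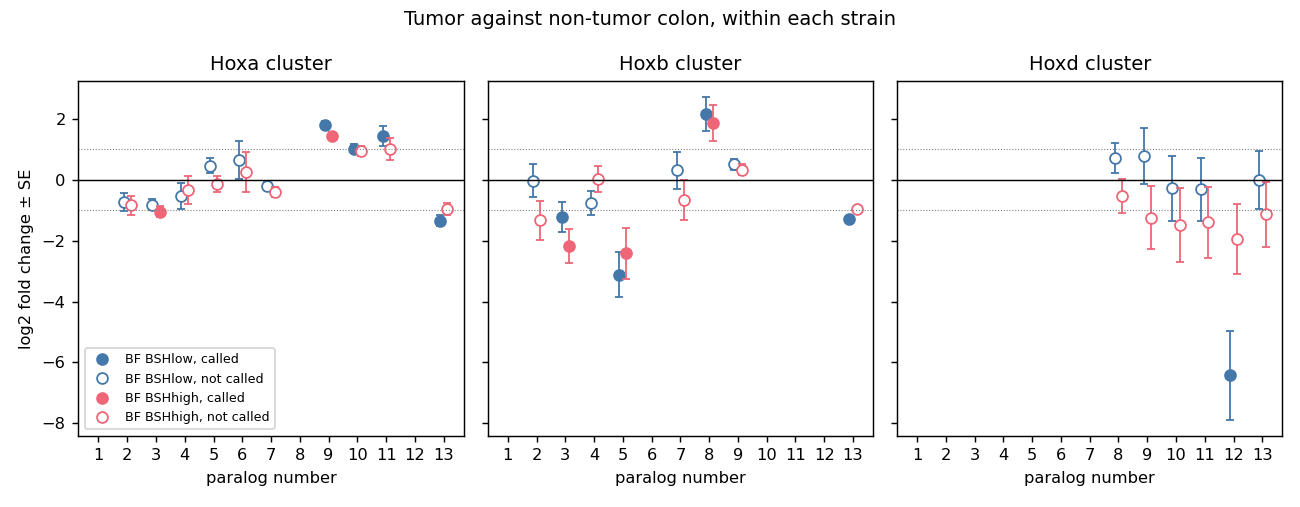
log2 fold change ± SE of tested Hox genes between tumor and non-tumor colon in BF BSHlow (blue) and BF BSHhigh mice (red), by paralog number, with 1 panel per cluster and filled points for called genes; dotted lines mark the fold limit. Hoxa9 lies above and Hoxa13 and Hoxb13 below 0 in both strains, and Hoxd12 has the widest gap between the strains (-6.43 and -1.95).

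The strains themselves were compared within each tissue and time, since the bile salt hydrolase of the bacteria was the variable of the study. No Hox gene was called in tumors (0 of 21, against 0.476% of all genes), in non-tumor colon (0 of 20, against 0.0%) or after 2 weeks (0 of 20, against 0.00727%) by edgeR, and DESeq2 and limma-voom called none either. Over all genes, limma-voom called 40 higher and 1 lower of 15325 in tumors, 0 of 14934 in non-tumor colon and 1 of 13753 after 2 weeks. With so few genes called, the lack of a Hox call says little about the members. In each of the 3 comparisons, 1 member had an unadjusted p under 0.05, against 12.7% of all genes in tumors, 9.23% in non-tumor colon and 6.8% after 2 weeks. No member separated the strains in tumors, in non-tumor colon or after 2 weeks, against 11.6%, 5.36% and 3.58% of all genes.

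In tumors, Hoxa9 had the unadjusted p under 0.05, at 94.5 ± 11.3 CPM with BF BSHlow (SD, n = 4) and 77.0 ± 5.94 CPM with BF BSHhigh (n = 3), a log2 difference of -0.31 ± 0.11 (adjusted p = 0.288, edgeR). Hoxa13 differed by 0.15 ± 0.25, Hoxb13 by 0.08 ± 0.10 and Hoxd13 by -1.04 ± 0.93. In non-tumor colon it was Hoxa13, which differed by -0.22 ± 0.09 (adjusted p = 0.532, edgeR). Hoxb13 differed by -0.24 ± 0.11 and Hoxd13 by 0.10 ± 0.89 there. These standard errors leave room for changes in Hoxd13 of more than 2-fold in either tissue.

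After 2 weeks the gene was Hoxb13, at 1.65, 1.48, 5.87 and 9.25 CPM with BF BSHlow and 59.4, 5.19, 57.2 and 2.06 CPM with BF BSHhigh. The log2 difference of 2.76 ± 0.99 (adjusted p = 0.711, edgeR) rested on BF BSHhigh replicates 1 and 3, and without the 3 libraries that stood apart it was -0.21. Hoxa13 differed by 1.03 ± 0.71 (adjusted p = 0.852, edgeR) and by -0.14 without the 3 libraries. Hoxd13 was below the filter for this comparison, and Hoxc13 had no count.

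Low HoxD in 4 of the 15 libraries after 12 weeks was seen in both tissues and both strains. The 4 were chosen by these HoxD values, so their separation in HoxD is a description. In the 2 non-tumor libraries, Hoxd9 to Hoxd13 were each below all 6 others, with Hoxd10 at 0.503 and 0.779 against 7.35 to 18.5 CPM and Hoxd11 at 0.325 and 0.503 against 10.98 to 24.3 CPM. In the 2 tumors, Hoxd9, Hoxd10, Hoxd11 and Hoxd13 were below all 5 others, and Hoxd12 was not separated. Evx2, the homeobox gene beyond Hoxd13, was also low, at 0.378 and 1.10 against 3.59 to 6.82 CPM in non-tumor colon and 0.767 and 1.04 against 2.05 to 13.4 CPM in tumors. Hoxb13 and Hoxa13 of these libraries lay within or overlapped the range of the others in both tissues.

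Some other measures also separated the pair with low HoxD from the rest in 1 tissue, and their part was not tested. They were picked from all measures looked at, after their values were seen. With 2 libraries against 6 or 5, some measures separate by chance, and no share over all genes is at hand. In the non-tumor pair, Hoxb9 was higher (34.6 and 41.5 against 25.4 to 29.7 CPM), Mtx2 higher (55.2 and 66.04 against 41.1 to 50.1 CPM), Lnpk lower (14.6 and 15.6 against 17.0 to 22.9 CPM) and the immune list lower (39.0 and 109 against 111 to 219 CPM). In the tumor pair, Hoxa10 was higher (69.4 and 96.8 against 57.5 to 68.4 CPM), as were Hoxa7 (21.2 and 22.5 against 15.6 to 19.4 CPM) and Hoxb5 (0.335 and 0.417 against 0 to 0.196 CPM), while Hoxb6 was lower (0.0479 and 0.0521 against 0.104 to 0.314 CPM). Counts of these last 2 genes were low, at 7 and 8 against 0 to 4 for Hoxb5. Hoxb6 had 1 count in each library of the pair against 2 to 7, which is within counting error. Higher in this pair too were the epithelial list (8582 and 9061 against 4821 to 8480 CPM) and the smooth muscle list (298 and 386 against 151 to 257 CPM).

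**Figure D5:**
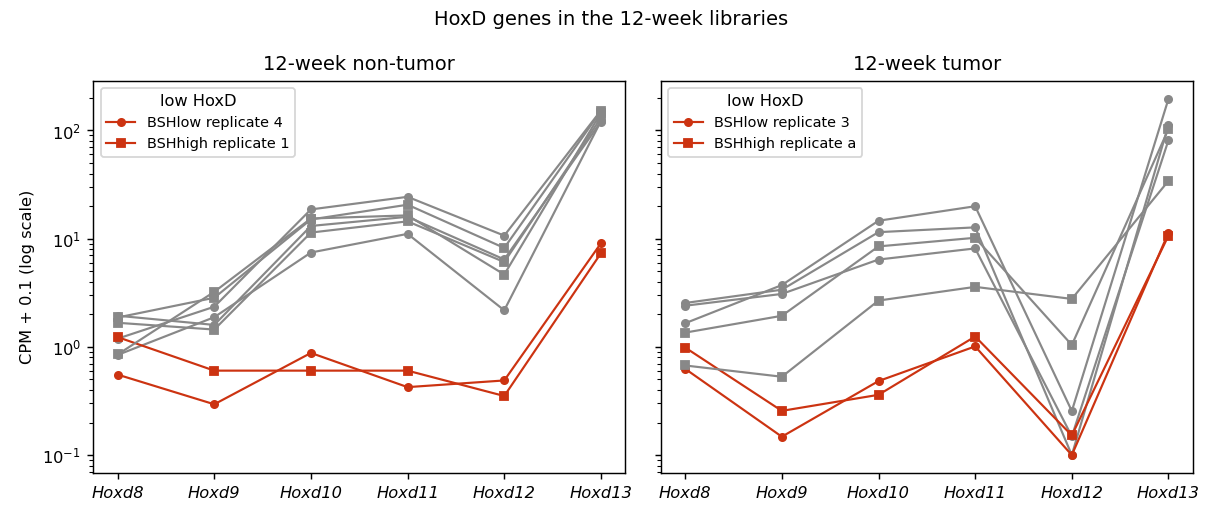
Level (CPM + 0.1, log scale) of Hoxd8 to Hoxd13 in each 12-week library, with lines joining the genes of a library (circles BF BSHlow, squares BF BSHhigh) and the 4 libraries with low HoxD in red. The red lines run below the grey ones from Hoxd9 on, with Hoxd13 at 7.23 to 11.3 CPM against 34.2 to 196 CPM in the others, except at Hoxd12 in tumors.

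Genes known to act on the clusters or with their proteins were taken from fixed lists. Of all genes tested, 16.4% were called higher and 18.4% lower in tumors, and 18.5% and 8.02% over time. Of 10 regulators of Hox genes, 9 were tested in tumors against non-tumor colon, and 3 rose and 2 fell (median log2 fold change 0.44, beside 0.04 for all genes). Rarb and Rarg, receptors of retinoic acid, rose by 4.48 ± 0.22 and 1.35 ± 0.13 on the log2 scale, and Gdf11, a ligand that promotes posterior Hox genes in the embryo, rose by 4.06 ± 0.38, from 1.70 to 7.02 CPM in non-tumor colon to 29.9 to 167 CPM in tumors. Cdx1 fell by 2.43 ± 0.16 and Cdx2 by 2.60 ± 0.62. Between 12-week non-tumor and 2-week colon, Rarb and Gdf11 rose and Cdx2 and Gata4 fell, of 9 tested (median 0.03 beside 0.01). Cdx2 was at 309 to 421 CPM after 2 weeks, 6.34 to 60.9 CPM in non-tumor colon and 0.259 to 27.8 CPM in tumors, and fell by 4.21 ± 0.33 between the first 2 of these (adjusted p = 4.49e-08, edgeR).

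Among the 9 TALE cofactors, 1 rose and 1 fell in tumors (Pbx4 and Meis1, median 0.11), and of 8 tested over time 4 rose and 1 fell (median 1.05). Of all genes tested, 16.4% rose and 18.4% fell in tumors (median 0.04), and 18.5% rose and 8.02% fell over time (median 0.01). Meis1 and Meis2 rose by 3.09 ± 0.40 and 3.78 ± 0.38 on the log2 scale, Pknox2 by 2.40 ± 0.38 and Pbx3 by 1.69 ± 0.23, and Meis3 fell by 1.26 ± 0.16. Of 13 Polycomb genes, 4 rose and none fell in tumors (median 0.59), among them Cbx6 by 2.30 ± 0.16, Cbx2 by 1.99 ± 0.09 and Ezh2, the methyltransferase of the complex, by 1.69 ± 0.10. None of the 13 passed the fold limit over time (median -0.17), where Ezh2 had a log2 fold change of -0.62 ± 0.07 (adjusted p = 1.05e-06, edgeR).

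Noncoding genes of the clusters were tested for 5 of 17 listed in the tumor comparison, and 1 rose and 3 fell (median -1.71). This compares with 16.4% and 18.4% of all genes (median 0.04), and the shares over time were 18.5% and 8.02% (median 0.01). Halr1, beside the anterior end of HoxA, had 0 to 3 counts in non-tumor colon and 70 to 177 counts in tumors. Its tumor mean was at least 21.8-fold higher when set against 3 counts in a library. Hottip, beyond Hoxa13, fell by 1.80 ± 0.27 and Hoxaas3 by 1.71 ± 0.31 on the log2 scale, and Hoxb5os had no count in any tumor and at most 32 counts in non-tumor libraries. Over time, Hottip and Hoxa11os rose, by 1.79 ± 0.50 and 1.23 ± 0.40, of 4 tested (median 0.84).

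Neighbours of the clusters that are not Hox genes were tested for 8 of 10 listed. The shares of all genes that rose and fell were 16.4% and 18.4% in tumors (median 0.04) and 18.5% and 8.02% over time (median 0.01). In tumors, Evx1, a homeobox gene beyond Hoxa13, rose by 4.69 ± 0.34 on the log2 scale, from 0.297 to 2.08 CPM in non-tumor colon to 15.3 to 47.5 CPM. Skap1 fell by 1.45 ± 0.40 and Ttll6 by 3.31 ± 0.20 (median of the 8, 0.23). Over time, Evx2 rose by 7.87 ± 0.86 from at most 1 count in a 2-week library, and Skap2 by 1.03 ± 0.11 (median 0.69).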

How the data were processed

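RNA-seq of mouse colon was analysed in 23 libraries. The authors trimmed reads with cutadapt, aligned them with STAR to mm10, used Picard, and deposited RSEM expected counts per gene (versions and strand setting are not given in the sources used here). The labels name a stranded total RNA kit and colonization 2 times a week, whereas the methods describe stranded mRNA libraries and colonization every few days. Identifiers of all 55449 genes matched GENCODE M21. In the count table, 1 blank row was left out, and 6 Hox genes had counts that were not whole. The header gives 3 columns the names of BF BSHlow tumors a second time. Against these names, they were taken as the BF BSHhigh tumors because the study's own listing of the values by strain holds them there, and they are called a, b and c here, since no replicate number is given.

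Deposited expected counts were rounded and tested with edgeR 4.0.16 (quasi-likelihood, TMM, filterByExpr) in R 4.3.3, with Benjamini-Hochberg adjustment over all genes tested, an adjusted p under 0.05 and a log2 fold change beyond 1. Tumor and non-tumor libraries were fitted together, strains within a tissue and time separately, and the 2 times over both strains. Alternatives were DESeq2 1.42.0, limma-voom (limma 3.58.1), RLE scaling, no filter, no fold limit, 1 fit of all libraries, a replicate block and leaving out libraries. The scripts were tested on simulated data. Marker lists were compared by an exact permutation test on the mean log2 of their summed CPM. Replicate pairs differed by far more than sampling noise (chi-square per degree of freedom 16.6 to 126 over 33 pairs), so none was counted as 1 library.

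In each comparison the called members were named, or the 12 with the smallest p where more were called, with the paralog 13 genes in all. The members and lists were chosen with earlier results of these data known. Sequences and motifs in proteins were not used here, and a few genes among the members and lists are not reported here.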

Additional observations from a re-analysis of the deposited data

Results flagged for a closer look

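A library far from the other 3 of its group was looked for in 70 groups of 4 libraries over 14 Hox genes (Dixon's ratio of gap to range above its 95% critical value), which chance alone passes in about 1 of 20 groups. It was found 9 times. Hoxd13 was at 8.96 CPM in BF BSHlow non-tumor replicate 4, against 121 to 153 CPM in the others, and at 7.23 CPM in BF BSHhigh non-tumor replicate 1, against 131 to 151 CPM. The latter library also had Hoxd10 at 0.503 CPM (others 11.3 to 15.3) and Hoxd11 at 0.503 CPM (others 14.4 to 20.5). BF BSHlow 2-week replicate 3 had Hoxa11 at 7.09 CPM (others 1.56 to 2.03). BF BSHlow tumor replicate 3 had Hoxa10 at 96.8 CPM (others 60.4 to 61.8), and BF BSHlow tumor replicate 4 had Hoxb8 at 0.392 CPM (others 0.734 to 0.815). Hoxb6 was at 0.148 CPM in BF BSHlow non-tumor replicate 1 (others 0.520 to 0.633). Hoxd12 was at 0.159 CPM, or 2 counts, in BF BSHhigh 2-week replicate 4, with no count in the other 3.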

How the results depend on the processing

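Of 352 alternative counts and scores, 337 stayed within 1.5 times or 1 SD of the reported value and 15 did not, and of 1158 alternative values of single genes 1111 kept direction and call, 12 reversed, 10 became called and 25 lost the call. In the tumor comparison of both strains, the members that fell numbered 8 without the fold limit and 8 without the filter, against 5. Without the fold limit, 72.2% of all genes passed in either direction. In BF BSHhigh mice, where 3 rose and 3 fell, 5 rose and 7 fell without the fold limit, and 5 fell with DESeq2, with RLE scaling and without the libraries with low HoxD. In the last of these settings, 2456 of 16660 genes fell. Shares over all genes are not given here for the fits without the filter, with DESeq2, with RLE scaling or with 1 library left out. Nor are they for BF BSHhigh mice without the fold limit. DESeq2 and RLE scaling placed Hoxa13 and Hoxb13 past the fold limit. Leaving out 1 library gave 2 to 5 higher and 1 to 4 lower there: BF BSHhigh tumor replicate b gave 5 higher and 1 lower, and BF BSHhigh non-tumor replicate 1 gave 5 higher. Over time, limma-voom called 5 members higher against 8, with 2785 of 15533 genes called higher. The score with paralogs 10 to 13 over 1 to 9 differed by 6.22 over time and by -1.27 for tumors, against 4.61 and -0.43. Hoxd13 reversed without a call when 1 library was left out, between -0.59 and 0.34 in BF BSHlow tumors (reported -0.02) and between -0.28 and 0.49 between strains in non-tumor colon (reported 0.10). Without the 3 apart 2-week libraries, chosen after seeing the data, the strain differences of Hoxb13 and Hoxa13 after 2 weeks were -0.21 and -0.14. The cause was not tested for any of these. In the tumor comparison of BF BSHlow mice, Hoxb3 lost its call when any of BF BSHlow non-tumor replicates 2 and 3 or BF BSHlow tumor replicates 1 and 2 was left out (log2 fold change -0.85 without non-tumor replicate 2). Hoxa10 lost its call there without BF BSHlow non-tumor replicates 2, 3 or 4 or tumor replicate 3 (0.80 without the last). In BF BSHhigh mice, Hoxa3 lost its call without non-tumor replicate 1 or tumor replicate b, Hoxb5 without non-tumor replicate 2 or tumor replicates b or c, and Hoxb8 without tumor replicate c (1.499, adjusted p = 0.0813 in edgeR).

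The same replicate numbers occur in several groups, but libraries with the same number did not deviate together. Their correlations were -0.15 to 0.23 between BF BSHlow tumor and non-tumor colon, with 1 of 4 above 0.1 and 1 of 4 best with its own number, and -0.26 to 0.34 over all 5 pairs of groups. With the replicate number as a block, 2 members rose and 3 fell in BF BSHlow tumors against 5 and 5, in a fit of 8 libraries in which 20 members passed the filter against 25, and Hoxd13 was at 0.12. Over time, 9 rose and 10 fell with the block. Shares over all genes are not given here for the fits with the block. Low counts limit Hoxb8, Hoxd12 and all of HoxC, and the spread of HoxD limits every comparison of Hoxd9 to Hoxd13 after 12 weeks.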
